A study of Citrullus lanatus with 6 samples.

Results

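The watermelon gene table held 2 kinds of gene model. The models with identifiers starting with ClCG belong to the reference annotation, and 1023 further models, which carry another prefix and are called added gene models here, lie outside it. The 200 added gene models described here were chosen by their mean level, as the 200 with the highest mean FPKM (fragments per kilobase of transcript, scaled to the mapped fragments of the library) over the 6 libraries, out of 23568 gene models in all. Of the 1023, 76 were listed at 0 in every library.

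The libraries came from leaves of 6-week-old seedlings of *Citrullus lanatus* cv. Crimson Sweet. The 3 control libraries were from plants kept in deionized water and the 3 salt libraries from plants kept in 300 mM NaCl, both for 7 h, as whole seedlings lifted out of their medium and washed. The stress label and the titles of the treated samples read drought, whereas their protocol label gives salt stress. The growth description and the study give NaCl, and the treatment is called salt throughout. Each library is described as a separate plant of 1 cultivar, so the spread given below is that between plants within 1 experiment. The depth recovered from the FPKM values ranged from 18838185 to 21258223 fragments per library.

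A reference annotation lists the genes that were found when a genome was first described, and RNA sequencing of another cultivar, tissue or treatment usually brings reads from places where it lists none. Such places can hold protein-coding genes that were missed, long non-coding RNAs, extensions of known transcripts or transposable elements. Retrotransposons of the copia type encode a gag protein and a pol polyprotein with protease, integrase and reverse transcriptase, are present in many near-identical copies in plant genomes, and are usually silent, and some families in other plants are transcribed under stress. How the added models were built was not given in the sources used here, and neither coordinates nor sequences of them were used. The study states that its FPKM rest on uniquely mapped reads. Reads that match an added model and an annotated copy alike would then be missing from both. This concerns above all the transposon, ubiquitin and heat shock models below.

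Leaf identity and the state of the libraries were checked with annotated genes. Of the 11 antenna genes (light-harvesting proteins), 10 were above 0 in every library, as were all 21 photosynthesis genes. The summed level of the antenna genes was 5213 to 7134 FPKM in the control libraries, 2131 in salt library 1, 184 in salt library 2 and 884 in salt library 3. The photosynthesis genes followed the same order in salt, with 2597, 549.6 and 1846 FPKM, against 7509 to 13358 in control. In these bulk leaf samples fewer cells of a type and less RNA per cell cannot be told apart. Over the 16638 genes whose mean reached 0.5 FPKM the median log2 fold change of salt over control was -0.57, and after scaling each library to its median ratio it was -0.05. Changes below are on the deposited scale, so a gene with no change there lay 0.57 above the median gene.

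The 200 models had means from 5.57 to 2323 FPKM with a median of 12.8, 131 of them below 20 FPKM and 24 at 100 FPKM or more. The last model inside the choice, Novel00334, had a mean of 5.57 FPKM, after Novel00638 with 5.58 and Novel00375 with 5.599. The first outside it were Novel00939 with 5.54, Novel00064 with 5.51 and Novel00024 with 5.47, so nothing separates the members from the next models in level. The 200 made up 1.81% to 1.95% of all FPKM in the control libraries, and 2.89%, 3.82% and 2.83% in salt libraries 1, 2 and 3. The ranges of the control and the salt libraries did not overlap, and salt library 2 had the highest share. The 200 were chosen by these same values, so their share is no independent evidence of a rise. The share of all 1023 added models was 1.93% to 2.11% in control and 3.03%, 3.95% and 2.96% in salt, in library order. Of the summed level of the 200, the 36 models below 1 FPKM in every control library (described below) held 12.4%, 22.3% and 4.68% in salt. The 10 models of highest mean held between 54.8% and 75.1% of the summed level of the 200 in each library.

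**Figure D1:**
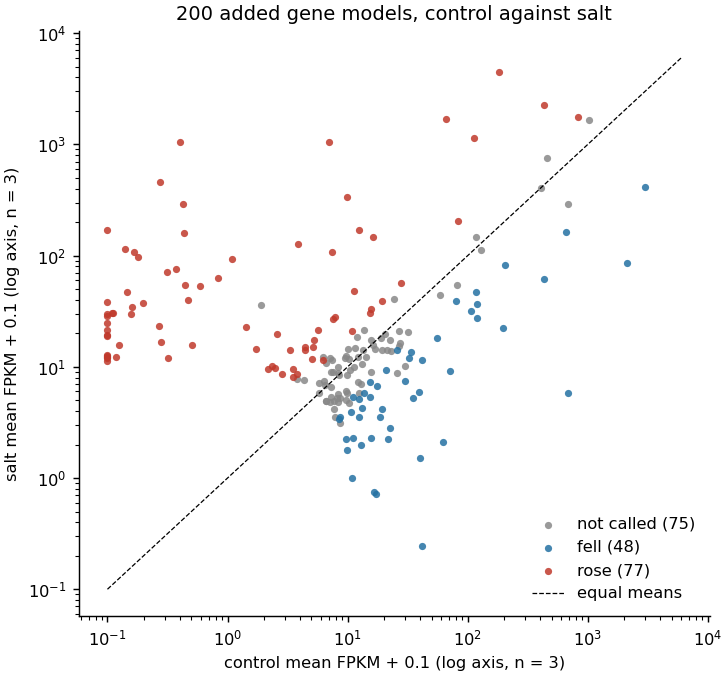
Mean FPKM plus 0.1 in the 3 control libraries (x axis, log) against the 3 salt libraries (y axis, log) for each of the 200 added gene models; colours give the call at adjusted p below 0.05. The 77 models that rose reach to the left edge, where 13 models had no fragment in any control library, and the 48 that fell lie below the line of equal means.

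The model of highest mean was Novel00880, described in the study's table as a partial UBQ10, a polyubiquitin whose product tags proteins for breakdown. It stood at 209, 196 and 137 FPKM in the control libraries and at 2749, 5816 and 4828 FPKM in salt. Every salt value was above every control value, and the log2 fold change was 4.58 (SE 0.39, adjusted p = 0.000248, limma with Benjamini-Hochberg adjustment over all genes tested, as for each adjusted p below). Its mean over the 6 libraries was 2323 FPKM.

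Novel00575, for which no description was at hand, came next and went the other way. Its levels were 2362, 3022 and 3676 FPKM in control and 490.1, 269.7 and 477 FPKM in salt. It fell by 2.90 on the log2 scale (SE 0.39, adjusted p = 0.00128). Novel00114 fell further, from 3267, 1629 and 1457 FPKM to 166, 6.66 and 83.4 FPKM, with a log2 fold change of -5.42 (SE 1.03, adjusted p = 0.00481). Salt library 2 was far below the other salt libraries in this model, as it was for the antenna genes. Both models had the same recovered length, 587 bases.

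Novel00909, described as like methionine gamma-lyase, an enzyme that splits methionine, stood at 373, 475 and 438 FPKM in control and 2228, 2965 and 1630.3 FPKM in salt. The log2 fold change was 2.37 (SE 0.35, adjusted p = 0.00187). Novel00241 had 962, 795 and 734 FPKM in control and 1306, 1916 and 2013 in salt, without overlap. Its log2 fold change of 1.05 passed the test narrowly (SE 0.35, adjusted p = 0.0383), and the adjusted p was 0.063 with the replicate numbers as a block and 0.0687 to 0.129 without any 1 of the libraries other than salt library 1. Novel00581 (790.1, 1010.4 and 1273 FPKM in control, 1208, 1501 and 2291 in salt) and Novel00735 (359.9, 435 and 589 in control, 532, 691 and 1062 in salt) had overlapping treatments. They did not pass the test, with adjusted p of 0.187 and 0.142, but did after median-ratio scaling, with 0.0484 and 0.031.

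Among the 10 models of highest mean, 3 more were far higher in salt. Novel00340, described as like a class I small heat shock protein, one of the small chaperones that hold unfolded proteins in solution, went from 33.0, 33.1 and 129.7 FPKM to 2092, 1863 and 1158 FPKM (log2 fold change 4.97, SE 0.54, adjusted p = 0.000664). Novel00343, described as a partial HSP70 cognate, a chaperone that refolds proteins at the cost of ATP, went from 108, 101.3 and 128 FPKM to 931, 1276 and 1211 FPKM (3.33, SE 0.26, adjusted p = 0.000185). Novel00494 had no description. It was at 0.902, 0 and 0 FPKM in control and at 759.9, 1945 and 466 FPKM in salt, a log2 fold change of 10.29 (SE 0.59, adjusted p = 0.000114). Only 9 fragments of Novel00494 were counted over the 3 control libraries against 29393 over the salt libraries.

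**Figure D2:**
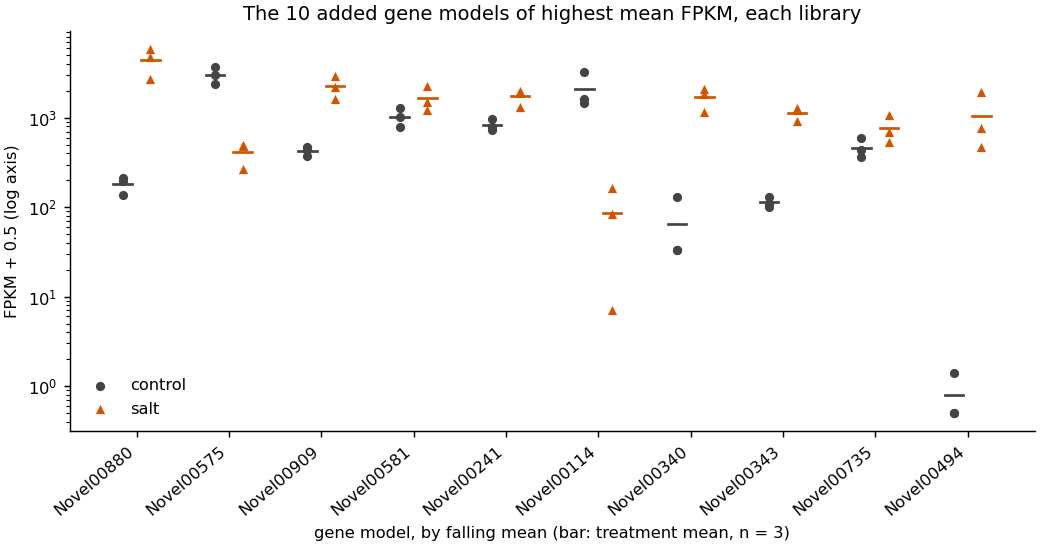
FPKM plus 0.5 (log axis) of the 10 added gene models of highest mean in each control library (circles) and each salt library (triangles); bars are treatment means of 3 libraries. The treatments overlap in Novel00581 and Novel00735 alone, and Novel00494 lies near the bottom of the axis in control.

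All 200 models entered the test, which compared the treatments over all 16638 genes. At an adjusted p below 0.05, 77 rose in salt and 48 fell, or 38.5% and 24% of the 200, while over all genes tested 13.6% rose and 34.2% fell. With an absolute log2 fold change above 1 added, 74 rose and 47 fell, beside 11.7% and 30.7% of all genes. After median-ratio scaling 93 members rose and 35 fell, beside 22.4% and 20.9% of all genes. The 77 that rose on the deposited scale all rose after scaling too, and 35 of the 48 that fell did. In 82 members every salt library was above every control library and in 59 every one was below, beside 17.7% and 43.4% of all genes tested.

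ClCG genes of similar mean gave a closer comparison. They were sorted into classes of mean FPKM that double in width, and the classes were weighted by the number of added models in each. Of these 12395 ClCG genes 14.6% rose and 36.8% fell on this weighted count, and after median-ratio scaling 24.2% and 22.68%. Their weighted median log2 fold change was -0.56, whereas that of the 200 added models was 0.16, also with the 13 members that had no control fragment at their lower bounds, all of which lie above it. After median-ratio scaling the medians were -0.0047 and 0.71. On the deposited scale the median of the added models was 0.075 without salt library 1 and 0.35 without salt library 2. The middle 50% of the ClCG genes, here without class weights, lay between -1.46 and 0.31 and that of the added models between -1.14 and 2.88. A log2 fold change above 4 was found in 37 members, or 18.5%, beside 2.03% of the ClCG genes, and one below -4 in 6 members, or 3%, beside 1.24%. The difference was not spread evenly over the levels: of the 4 members with a mean of 256 to 512 FPKM none rose, whereas 8 of the 14 with a mean of 32 to 64 FPKM did. Whether the added models as a set differed from the ClCG genes was not tested.

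A high value in 1 treatment is enough for a place among the 200, so the choice itself bears on these counts. By the control libraries alone 144 of the members, and by the salt libraries alone 167, would be among the top 200 added models. The direction of the counts depended on the ranking, beside 13.6% of all genes tested that rose and 34.2% that fell. In the 200 ranked by control alone 24 rose and 78 fell (12% and 39%, median log2 fold change -0.89), near those shares. In the 200 ranked by salt alone 94 rose and 26 fell (47% and 13%, median 0.91). The 111 members in both lists held 24 that rose and 26 that fell (21.6% and 23.4%), with a median log2 fold change of -0.11. The other 89 held 53 that rose and 22 that fell (59.6% and 24.7%). Ranking by the mean of log2(FPKM + 0.5) kept 171 members and gave 55 rises and 46 falls (27.5% and 23%). Among the 100 models of highest mean 45 rose and 25 fell (45% and 25%). Among the 400 of highest mean 105 rose and 94 fell (26.25% and 23.5%).

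**Figure D3:**
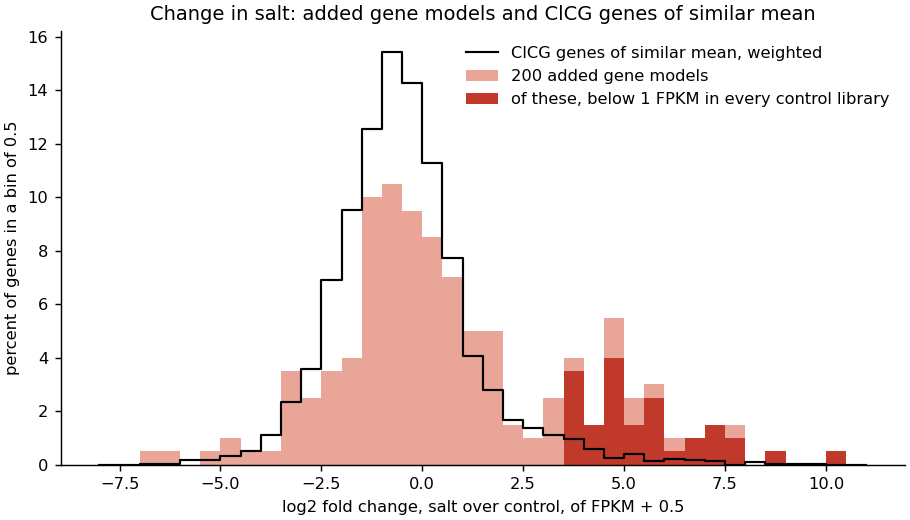
Log2 fold change of salt over control (x axis, bins of 0.5) as a percentage of the 200 added gene models (light bars) and of the 12395 ClCG genes of similar mean, weighted by class (line); dark bars mark the 36 added models below 1 FPKM in every control library. The added models have their main peak near the ClCG genes and a long shoulder above 3, most of it from those 36 models.

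That shoulder held a group of models that were all but absent without salt. In 36 of the 200, or 18%, every control library was below 1 FPKM and the salt mean was at least 5 FPKM; these limits were set after the values were seen, and the group is described with no test of its own. Of the ClCG genes of similar mean 55 met the same limits, 0.51% on the weighted count. The summed level of the 36 was 6.13, 2.14 and 4.32 FPKM in the control libraries and 2479, 6324 and 949 FPKM in salt libraries 1, 2 and 3. No fragment of 13 of them was counted in any control library. In 2 members the reverse held, with every salt library below 1 FPKM and a control mean of at least 5 FPKM.

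Most of the 36 shared 1 order of the salt libraries. The limits named no order, but 1 high salt library can carry a mean past them, so the choice is not independent of the order. In 34 of the 36 models salt library 2 was the highest and salt library 3 the lowest. Among the other 164 members 23 had that order, or 14%, among all genes tested 12%, and among the 55 ClCG genes that met the same limits 22, or 40%. The median ratio of salt library 2 to salt library 3 was 11.7 over the 36, with a range from 0.79 to 115, whereas it was 0.81 over all genes above 0 in the 3 salt libraries. Salt library 2 was also the library with the lowest antenna and photosynthesis levels, but salt library 3, the lowest in the 36 models, was not the highest in those genes. The part of leaf state, of the plant or of the library in this order was not tested.

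**Figure D4:**
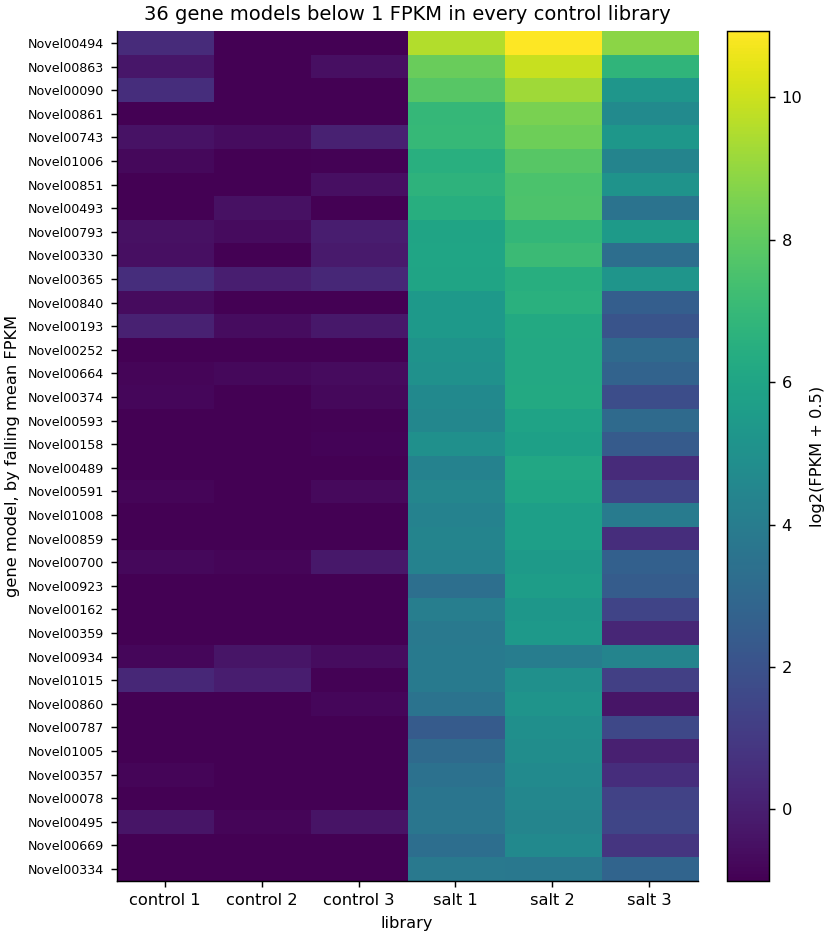
Level, as log2(FPKM + 0.5), of the 36 added gene models below 1 FPKM in every control library (rows, by falling mean) in each of the 6 libraries (columns). In 34 rows salt library 2 is brightest and salt library 3 is the darkest of the salt libraries; Novel00334 and Novel00934, the latter named after its values were seen, are the exceptions.

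Novel00494 led the group and Novel00863 followed, with 0.317, 0 and 0.209 FPKM in control and 292, 978 and 113 in salt (log2 fold change 8.91, SE 0.69, adjusted p = 0.000179). Novel00090 had 0.967, 0 and 0 FPKM in control and 225, 604 and 38.4 in salt (7.93, SE 0.93, adjusted p = 0.000843). Novel00861 was at 0 in the control libraries and at 122, 365 and 25.6 FPKM in salt. Against a floor of 3 fragments over the control group, it was at least 1978-fold higher in salt, or 856-fold without salt library 2, and its adjusted p was 0.000627. None of these 4 models had a description. The limits of the group set the treatments apart in advance. The distances and adjusted p given for its members are therefore no independent evidence of a rise.

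Further models had the same pattern at lower levels. Novel00743, described as a hypothetical protein, went from 0.255, 0.166 and 0.585 FPKM to 126, 316 and 39.2 FPKM (log2 fold change 7.16, SE 0.68). Novel00851 went from 0, 0 and 0.199 FPKM to 105, 185 and 34.2 (7.30, SE 0.58), Novel00793 from 0.221, 0.127 and 0.472 to 62.5, 118 and 44.5 (6.52, SE 0.42), and Novel00493 from 0, 0.235 and 0 to 87.4, 192 and 11.2 (6.68, SE 0.91). Their adjusted p ranged from 0.00013 to 0.00141. Novel00252, at 0 in control and at 33.9, 73.0 and 8.17 FPKM in salt, was at least 2874-fold higher in salt over the same floor, or 1578-fold without salt library 2; it was chosen after its values were seen.

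Transposon models made up part of this group. Of the 6 members with a transposon description all rose, and 5 were among the 36. Novel01006, described as a gag protease polyprotein, had 0.0923, 0 and 0.0254 FPKM in control and 92.1, 228 and 20.1 in salt (log2 fold change 7.14, SE 0.77, adjusted p = 0.000646). The models Novel00193, Novel00374 and Novel00162 were described as gag/pol proteins. Novel00193 had 0.573, 0.162 and 0.365 FPKM in control and 41.4, 74.9 and 3.79 in salt. Novel00374 had 0.0762, 0 and 0.105 in control and 25.1, 74.5 and 3.07 in salt, and Novel00162 was at 0 in control and at 16.9, 39.1 and 2.203 in salt. The adjusted p of the 3 gag/pol models lay between 0.00475 and 0.00559, and that of Novel00357, described as like a copia-type reverse transcriptase (0.0545, 0 and 0 FPKM in control, 10.6, 25.3 and 0.955 in salt), was 0.0124. In all 5 the salt libraries kept the order given above, with salt library 3 far below the others.

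Novel00702, described as like HARBI1, a nuclease related to the transposase of Harbinger DNA transposons, was the transposon model outside the 36. It was at 7.74, 1.86 and 1.59 FPKM in control and at 92.3, 259.7 and 30.3 FPKM in salt, a log2 fold change of 4.72 (SE 0.80, adjusted p = 0.00311). The descriptions came from the part of the study's table of changed genes that was at hand, in which all the genes had been picked for a rise in these libraries, so the direction of a described model is not independent evidence. Of the 28 ClCG genes with a transposon description there, 17 entered the test, 13 rose, and 1 of the 17 had the order of salt libraries seen in the 36.

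All 36 rose at an adjusted p below 0.05. When 1 library was left out between 31 and 36 did, with the fewest without salt library 1. Low control and high salt levels had defined the group, so these counts do not support its rise. When recovered fragments were tested with limma voom in place of log2 FPKM, 21 passed and, with median-ratio scaling added, 19. Of the models above, Novel00493, Novel00374, Novel00162 and Novel00357 did not pass by voom (adjusted p = 0.064, 0.0899, 0.0652 and 0.11), nor did Novel00193 (0.0504).

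Beside the transposon models, 13 members were classed by their description as a named protein, and all 13 rose. Their direction is bound to the choice of the table just described. The 4 that belong to protein quality control were Novel00880, Novel00340 and Novel00343, given above, and Novel00654, described as HSP18.1A, a small heat shock protein. Novel00654 was at 9.99, 7.59 and 19.3 FPKM in control and at 117, 258 and 139 FPKM in salt (log2 fold change 3.77, SE 0.41, adjusted p = 0.000664). In these 4 models no salt value overlapped a control value, and their log2 fold changes ran from 3.33 to 4.97. Their annotated relatives in the same table, 6 HSP70 genes and 8 small heat shock protein genes, all rose, with median log2 fold changes of 5.10 and 4.28. These relatives had also been picked for a rise in these libraries, so their direction is not independent evidence either.

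Novel00562 was the largest rise among the named proteins. It was described as like xyloglucan endotransglucosylase/hydrolase 23, an enzyme that cuts and rejoins xyloglucan in the cell wall, and went from 0.465, 3.63 and 16.5 FPKM to 1216, 1151 and 766 FPKM (log2 fold change 7.97, SE 0.88, adjusted p = 0.000683). The control libraries differed widely in it, while the salt libraries lay close together. Novel00407, described as a glycosyltransferase, a class of enzyme that moves sugars onto other molecules, went from 11.4, 16.9 and 20.015 FPKM to 132, 129.6 and 180.1 FPKM (3.17, SE 0.28, adjusted p = 0.000274).

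A pair of members were described as transporters. Novel00398, like an ammonium transporter, which takes ammonium across the plasma membrane, had 0.547, 1.17 and 5.68 FPKM in control and 25.9, 19.7 and 12.7 in salt (log2 fold change 3.12, SE 0.65, adjusted p = 0.00661). Novel00475, a MATE efflux protein, of a family that exports organic compounds and ions, had 2.04, 0.656 and 4.09 FPKM in control and 12.2, 5.17 and 12.6 in salt (2.05, SE 0.58, adjusted p = 0.0215). Its treatments did not overlap, but the call was lost without control library 1 or 2 or salt library 1 or 3, with adjusted p from 0.0554 to 0.0704. Of the 7 ClCG transporters of these kinds in the same table, which had also been picked for a rise, 5 rose.

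The remaining named members were of other kinds. Novel00664, described as like an F-box protein, the part of a ubiquitin ligase that picks its target, was among the 36, with 0.0638, 0.0935 and 0.141 FPKM in control and 32.7, 72.2 and 6.47 in salt (log2 fold change 5.42, SE 0.77, adjusted p = 0.00163). Novel00482, a cx9C motif protein, of a family found between the membranes of mitochondria, had 5.32, 7.23 and 4.05 FPKM in control and 25.8, 22.01 and 16.8 in salt (1.88, SE 0.32, adjusted p = 0.00295). Novel00400, like a pentatricopeptide repeat protein, which binds RNA in organelles, had 3.79, 2.15 and 3.62 FPKM in control and 11.8, 6.22 and 24.4 in salt (1.82, SE 0.50, adjusted p = 0.0196, and 0.075 without control library 2). Novel00576, like the transcription factor Myb4, had 2.99, 8.88 and 3.18 FPKM in control and 16.4, 18.4 and 10.2 in salt (1.61, SE 0.46, adjusted p = 0.0214). The call of Novel00576 was lost without control library 1 or 3 or salt library 1 or 2, with adjusted p from 0.0587 to 0.0753. In none of these 4 did the treatments overlap.

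Of the 48 other members in that part of the table, 31 had no description, of which 30 rose. The other 17 were classed as uncharacterized or hypothetical, among them Novel00934, described as like a keratin, and all 17 rose. Their direction too is bound to the choice of that table. The 133 members outside that part held 11 of the rises and each of the 48 falls, so no falling member carries a description here. All 48 that fell had every salt library below every control library. Over all genes tested 43.4% had this and 34.2% fell, so it is no support apart from the call.

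Novel00144 fell furthest. It was at 919.6, 873 and 265 FPKM in control and at 4.30, 11.6 and 1.45 FPKM in salt, a log2 fold change of -6.95 (SE 0.71, adjusted p = 0.000489). Novel00073 went from 29.3, 41.8 and 53.6 FPKM to 0.429, 0 and 0 FPKM, with 5 fragments left over the salt libraries against 1538 over the control libraries (-6.05, SE 0.41, adjusted p = 0.000137). Novel00546 went from 61.8, 70.7 and 54.8 FPKM to 2.62, 2.22 and 1.18 (-4.69, SE 0.31, adjusted p = 0.000137). Control library 3 was the lowest control in Novel00144 and the highest in Novel00073.

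Among the next falls, Novel00642 had 45.7, 39.6 and 33.8 FPKM in control and 0.58, 2.67 and 0.952 in salt (log2 fold change -4.55, SE 0.43). Novel00472 had 18.9, 15.1 and 17.4 FPKM in control and 0.921, 0.912 and 0 in salt (-4.13, SE 0.47). Novel00574 had 26.9, 9.44 and 13.4 FPKM in control and 0.124, 0.492 and 1.35 in salt (-3.90, SE 0.54). Their adjusted p lay between 0.00037 and 0.00151, and no salt value came near a control value. Novel00930 had 24.7, 22.3 and 18.2 FPKM in control and 1.62, 0.741 and 4.005 in salt (-3.27, SE 0.48, adjusted p = 0.0018).

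In the last of the 10 largest falls the salt libraries themselves differed. Novel00460 was at 293, 282 and 715 FPKM in control and at 144, 17.1 and 22.9 in salt (log2 fold change -3.32, SE 0.77, adjusted p = 0.0101). Novel00992 was at 44.8, 34.0 and 25.9 FPKM in control and at 10.9, 0.579 and 3.84 in salt (-3.20, SE 0.76, adjusted p = 0.011). Salt library 1 was the least lowered in both, as it was for the antenna genes, and salt library 2 the lowest. Each of the 10 largest falls kept its call under the 19 alternative settings.

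The 75 members that passed the test in neither direction included some with hardly any difference. Novel00736 stood at 14.4, 17.1 and 29.5 FPKM in control and 15.6, 18.4 and 25.5 in salt, Novel00259 at 11.3, 14.7 and 13.8 and at 17.55, 8.91 and 15.4, and Novel00463 at 16.7, 17.4 and 14.1 and at 16.6, 12.7 and 17.8. Novel00891 (5.28, 7.10 and 6.88 FPKM in control, 8.84, 7.08 and 4.32 in salt) and Novel00523 (9.64, 2.69 and 4.80 in control, 9.79, 2.23 and 4.97 in salt) were the other members with the smallest change. In all 5 the treatments overlapped, with SE between 0.25 and 0.60 on the log2 scale, and after median-ratio scaling their log2 fold changes were 0.46 to 0.58, none past the test.

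The spread between replicates was larger in the added models than in ClCG genes of similar mean. The pooled SD of log2(FPKM + 0.5) within treatments had a median of 0.54 over the 200, and the ClCG genes gave 0.42 on the weighted count. By treatment the medians were 0.32 in control and 0.55 in salt for the added models, and 0.27 and 0.46 for the ClCG genes. The SD was above 1 in 52 members, or 26%, and in 7.37% of the ClCG genes. The added models were above the ClCG genes in the 8 classes from 4 to 1024 FPKM and below them in the 2 highest classes, which held 6 members. Whether the spreads differed was not tested.

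**Figure D5:**
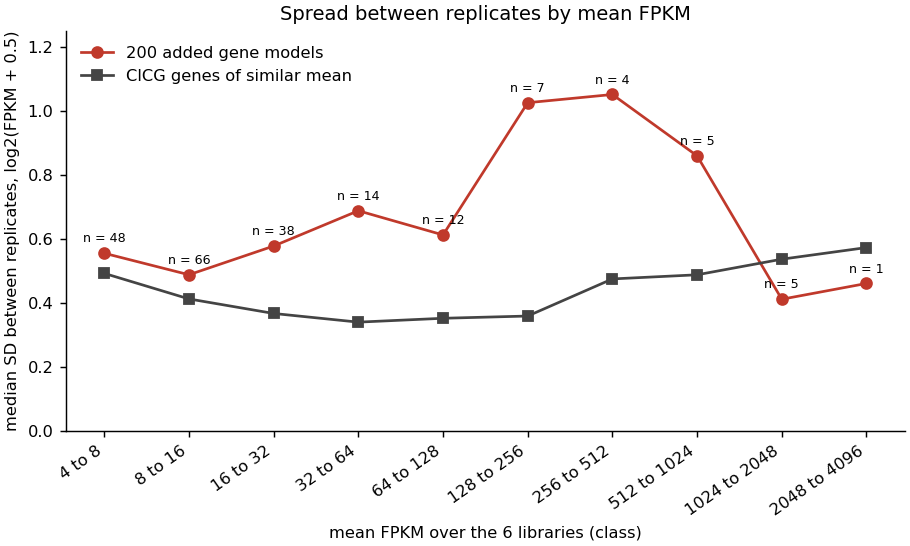
Median pooled SD of log2(FPKM + 0.5) between replicates (y axis) in classes of mean FPKM (x axis) for the 200 added gene models (circles, with the number of models) and ClCG genes of the same class (squares). The added models lie above the ClCG genes in every class up to 1024 FPKM and below them in the 2 highest.

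Much of that spread belonged to the 36 models. Their median SD in salt was 1.75, whereas it was 0.47 in the other 164 members and 0.96 in the 55 ClCG genes that met the same limits. The 5 members of largest SD all had salt library 2 high and salt library 3 low. Novel00800, the largest with an SD of 2.12, had 3.14, 0.583 and 1.66 FPKM in control and 19.0, 86.7 and 1.199 in salt. It did not pass the test (log2 fold change 2.80, SE 1.26, adjusted p = 0.0987) but did without salt library 3 (adjusted p = 0.00733). Novel00489, Novel00859 and Novel00359 were at 0 in control, with 18.8, 69.6 and 0.866 FPKM, 20.6, 52.9 and 0.957 FPKM, and 13.7, 41.9 and 0.709 FPKM in salt. Their SD ran from 1.86 to 2.05 and their adjusted p from 0.0142 to 0.0183, and each call was lost without salt library 1 (adjusted p = 0.0577, 0.0502 and 0.0609) and, for Novel00489 and Novel00359, without control library 2 (0.0558 and 0.0581). Novel00860 (0, 0 and 0.072 FPKM in control, 11.3, 35.02 and 0.303 in salt) had an adjusted p of 0.0343, and 0.0732 to 0.104 without any 1 library other than salt library 3. By voom none of Novel00489, Novel00859, Novel00359 and Novel00860 passed (adjusted p = 0.163, 0.153, 0.154 and 0.194).

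At the other end, the 5 members of smallest SD had no description at hand. Novel00326 held 11.6, 12.9 and 14.1 FPKM in control and 2.04, 1.69 and 1.93 in salt, an SD of 0.12, and fell by 2.48 on the log2 scale (SE 0.30, adjusted p = 0.000916). Novel00770 held 25.6, 29.1 and 28.1 FPKM in control and 56.9, 49.9 and 64.0 in salt, and rose by 1.02 (SE 0.21, adjusted p = 0.00651). Both treatments were tight in both models. The remaining 3, Novel00451 (23.4, 29.1 and 27.5 FPKM in control, 22.4, 19.7 and 19.99 in salt), Novel00756 (106, 140.2 and 103 in control, 139.6, 145 and 154 in salt) and Novel00394 (8.12, 7.49 and 5.97 in control, 9.08, 7.82 and 9.65 in salt), did not pass the test. After median-ratio scaling Novel00756 and Novel00394 did, with adjusted p of 0.0206 and 0.0377, and the log2 fold change of Novel00451 turned from -0.35 to 0.22.

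The 3 members just inside the choice behaved unlike each other. Novel00375 (3.82, 1.96 and 2.44 FPKM in control, 11.8, 9.43 and 4.15 in salt) rose with an adjusted p of 0.0362, which was 0.0527 to 0.122 without any 1 library other than salt library 3. Novel00638 (7.74, 9.41 and 6.01 in control, 2.08, 2.74 and 5.49 in salt) did not pass, with an adjusted p of 0.0504, and did without salt library 3 (0.0205). Novel00334 was at 0 in control and at 13.4, 13.3 and 6.72 FPKM in salt, with an adjusted p of 0.000321.

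The lengths recovered from the FPKM values ran from 120 to 6089 bases in the 200 models, with a median of 1265, beside 1537 on the weighted count for ClCG genes of similar mean. By call, the models that rose had a median length of 1910 bases, those that fell 990.5 and the others 1058. The 36 models near 0 in control were long, with a median of 2339 bases and a range from 120 to 5543, whereas the other 164 members had a median of 1155 and the 55 ClCG genes that met the same limits 990 bases. The median count of a member in a library was 260 fragments, and 44 members had fewer than 10 fragments in at least 1 library, so that a level near 0 in a short model rests on very few reads.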

How the data were processed

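RNA was sequenced from leaf of 3 control and 3 salt-treated seedlings. The deposited table holds FPKM per gene, which the authors computed from reads counted per gene and gene length; their methods name TopHat and HTSeq on the Charleston Gray genome (version 2), whereas the submitters' processing notes name HISAT2 2.1.0, featureCounts and DESeq2. How the added gene models were built was not given in the sources used here, and no reference sequence was used.

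The FPKM values were whole fragments for all 19557 genes above 0 (within 0.002 fragments or 1e-07 of the value) at 1 total per library and 1 length per gene, which gave depth, lengths and fragments. On simulated data every count was recovered in 98.7% of the genes above 0. No column of another sample was present (0).

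Treatments were compared with limma 3.58.1 (R 4.3.3) on log2(FPKM + 0.5), with a variance trend, for genes whose mean reached 0.5 FPKM, and Benjamini-Hochberg adjustment over all 16638. Called means adjusted p below 0.05. Fold changes understate low genes. On simulated data with 16445 genes, 88 of 100 changes of 3 and 63 of 100 of 1.5 on the log2 scale were found, with 11 false calls. The simulation drew every library from the control means and SDs, without the wider spread in salt, and changed no gene near 0 in control. Its figures therefore do not carry over to the members near 0 in control. Members, lists and tests were chosen with earlier results of these data known. Named members are the 10 of highest mean, the 10 largest rises and falls without overlap, the described ones, the 5 of largest and of smallest SD and of smallest change, and ranks 198 to 203; others are named as chosen after their values were seen.

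Samples with the same replicate number deviated together from their group means (correlations across genes of 0.175, 0.105 and 0.128), although no label pairs them; a fit with the replicate block was therefore run. Alternatives were the pseudocount, the filter, 3 scalings, the variance trend, array weights, the block, leaving out each library and, added after the data were seen, voom on recovered fragments.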

Additional observations from a re-analysis of the deposited data

How the results depend on the processing

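Over the 19 alternatives 59 to 93 members rose and 32 to 50 fell, against 77 and 48, and without 1 library 60 to 71 and 33 to 49. In every one of the 20 settings 44 members rose and 27 fell. The fewest rises came by voom (59) and without control library 2 (60), and the most after median-ratio scaling. Members that fell by more than 1 on the log2 scale numbered 47 as deposited, 28 after median-ratio scaling, 31 after quantile normalization, 30 with the replicate block and median-ratio scaling, and 28 by voom with median-ratio scaling. Under those settings, in that order, the median log2 fold change of the members was 0.71, 0.66, 0.71 and 0.77, and 3719, 3602, 3760 and 3684 of all genes rose (2266 as deposited), of them 3228, 3066, 3304 and 3180 past the fold (1944 as deposited). All genes that fell numbered 5684 as deposited, and 3472, 3557 and 3318 with median-ratio scaling alone, with the block and by voom; past the fold they numbered 5101, and 3098, 3201 and 2990, or 3292 after quantile normalization.

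Without 1 library the median of the members ran from 0.075 (without salt library 1) to 0.35 (without salt library 2), and all genes that fell from 3685 (without control library 2) to 5613. The replicate block alone left 74 members that rose and 50 that fell; it ended 5 calls, Novel00241 among the named members, added 4, and changed no other call of a member. Voom was chosen after the data were seen and left 21 of the 36 models near 0 in control; the cause was not tested. The spread kept its order under both pseudocounts, median-ratio scaling and each library left out, with 0.49 to 0.59 in the members and 0.35 to 0.44 in ClCG genes, and as coefficients of variation of FPKM, 38.9% and 30.2%. Of 59 named members, 31 kept sign and call throughout.

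The members with the smallest changes, and Novel00451 from those of smallest SD, changed sign, none of them past the test. Novel00451 (-0.35) went to 0.22 with median-ratio scaling, with and without the block, to 0.075 by quantile normalization and to 0.21 by voom with median-ratio scaling. Novel00736 (-0.0021) went to 0.57, with and without the block, 0.43 and 0.57 in these settings, to 0.086 with a common FPKM sum, 0.14 with array weights and 0.017 by voom, Novel00463 (-0.04) to 0.52, 0.46, 0.54 and, with a common sum, 0.045, and Novel00523 (-0.05) to 0.46, 0.60, 0.59, 0.031 with a common sum and 0.093 with array weights. Without 1 library Novel00736 ran from -0.21 to 0.29, Novel00259 from -0.16 to 0.31, Novel00891 from -0.19 to 0.29, Novel00463 from -0.14 to 0.10 and Novel00523 from -0.52 to 0.43.

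Depth limits the low side: 27 members had fewer than 10 fragments in every control library, and 3 libraries a treatment limit the precision of each SD.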
